A study of Homo sapiens with 4 samples.

Results

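The 39 HOX genes of the HOXA, HOXB, HOXC and HOXD clusters and the gene of their cofactor MEIS1 were examined for H3K27 acetylation (H3K27ac), a histone mark of active promoters and enhancers, in a pair of B-cell precursor acute lymphoblastic leukemia (BCP-ALL) cell lines. The peaks were taken by position, as every peak that overlapped 1 of 5 fixed hg19 windows by at least 1 bp. The member genes are 40 of the 20056 protein-coding genes named in RefSeq. The members and windows were chosen with earlier results of these data known. The windows held 24 of the 44626 peaks of REH and 10 of the 74504 peaks of 697. ChIP-seq was performed on 1 untreated H3K27ac library of REH, an ETV6/RUNX1-positive line, and 1 of 697, an ETV6/RUNX1-negative line, each with input DNA of the same line as the control. Both are single established lines grown in the same kind of medium. With no replicate cultures, every difference below is between 1 library and another and has no replicate check. A peak is a region in which the pileup of ChIP fragments exceeded the local background from the input, and a peak list does not say in what share of the cells a region was acetylated. After duplicates were removed, 65241657 ChIP tags remained in REH and 68911420 in 697, which is 1.06 times as many. The 697 list had 1.67 times as many peaks and 1.49 times as many bases under peaks as the REH list. B-lineage marker genes were not analysed here, because no gene annotation of the hg19 build was used.

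HOX genes encode homeodomain transcription factors that give cells a position along the body axis in the embryo, and in blood the genes of the HOXA and HOXB clusters are active in stem and progenitor cells and fall silent as B cells mature. In each cluster the genes lie in the order of their numbers, and long stretches of a cluster can carry active or silent chromatin as a unit. HOX proteins bind DNA together with TALE homeodomain proteins such as MEIS1, and HOXA9 with MEIS1 is a well-studied driver of leukemias with KMT2A rearrangements.

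The promoters shown first are those of members whose whole window lay outside the 697 peaks, so that the sequences can be read beside the empty stretches described below. They are the 250 bases before the start of the gene, 5′ to 3′ in the direction of the gene, from RefSeq on GRCh38, with each CpG in capitals. Those coordinates were not combined with the hg19 peaks. MEIS1 (chr2:66434875-66435124, plus strand) encodes the TALE cofactor, HOXB1 (chr17:48531012-48531261, minus strand) is the hindbrain gene at one end of HOXB, and HOXD13 (chr2:176092471-176092720, plus strand) is the limb gene at one end of HOXD.
MEIS1: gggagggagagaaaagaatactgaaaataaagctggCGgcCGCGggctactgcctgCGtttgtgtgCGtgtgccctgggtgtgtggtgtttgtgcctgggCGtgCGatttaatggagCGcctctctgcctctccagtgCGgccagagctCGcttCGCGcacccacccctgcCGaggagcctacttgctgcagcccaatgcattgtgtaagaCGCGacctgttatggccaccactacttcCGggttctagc
HOXB1: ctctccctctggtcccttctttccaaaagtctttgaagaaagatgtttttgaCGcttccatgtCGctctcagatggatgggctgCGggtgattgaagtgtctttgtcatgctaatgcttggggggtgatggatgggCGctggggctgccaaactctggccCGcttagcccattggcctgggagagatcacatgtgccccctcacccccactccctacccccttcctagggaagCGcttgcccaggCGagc
HOXD13: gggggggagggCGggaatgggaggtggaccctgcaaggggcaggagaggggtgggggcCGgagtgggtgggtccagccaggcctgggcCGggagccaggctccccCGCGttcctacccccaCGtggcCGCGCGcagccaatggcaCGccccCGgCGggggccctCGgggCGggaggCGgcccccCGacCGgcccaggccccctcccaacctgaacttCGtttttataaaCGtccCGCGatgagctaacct

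These stretches held 16 CpGs at MEIS1, 7 at HOXB1 and 21 at HOXD13. A promoter entry was at hand for 21 of the 40 members. Of these, 9 were of HOXA, 8 of HOXD, 2 of HOXC, and 1 each of HOXB and MEIS1, so the clusters are unevenly represented. The 21 had a median of 20 CpGs and a range of 4 to 40, against a median of 11 over all 27305 promoters of the same length. The GC content was similar, with a median of 59.2% in the members and 58.0% over all promoters. The 250 bases before HOXC4 and HOXC5 are the same entry, so these members are not independent.

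The clusters also hold microRNA genes, several of which are known to target HOX mRNAs. Their mature 5p sequences from RefSeq are shown as examples from HOXA and HOXB, windows that were called different between the lines, with the seed (bases 2 to 8) in capitals. MIR196B lies in HOXA between HOXA9 and HOXA10, MIR10A and MIR196A1 lie in HOXB, and MIR196A2, whose 5p sequence is identical to that of MIR196A1, lies in HOXC.
miR-196b-5p: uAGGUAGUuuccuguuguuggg
miR-196a-5p: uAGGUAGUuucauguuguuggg
miR-10a-5p: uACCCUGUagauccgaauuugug

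The miR-196 sequences share the seed AGGUAGU, and miR-10a-5p has the seed ACCCUGU. In 697 no peak lay anywhere in the HOXB window, and so none over MIR10A or MIR196A1. Whether a REH peak lay over either gene was not determined, because their positions were at hand on GRCh38 only.

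Across the 5 windows, peaks covered 37931 bp in REH and 13426 bp in 697, of 774000 bp in all, which is 4.90% and 1.73% (no replicates). REH thus had 2.83 times the covered bases and 2.40 times the peaks of 697 in these loci, although its whole list was the shorter one. Peaks were found at 4 of the 5 loci in REH and at 2 in 697. A locus was called different when only 1 line had a peak or when the covered bases differed at least 2 times. By this rule HOXA, HOXB and HOXD were higher in REH, HOXC was not called, MEIS1 had no peak in either line, and 0 loci were higher in 697. Under a rule of 3 times the HOXA call was lost, and with only peaks of at least 1000 bp HOXC was called higher in 697, by 1349 against 3232 bp. Along the genome, in tiles of the width of each window that held a peak of either line, the same call in favour of REH was made in 22.3% of tiles of the HOXA and HOXC width (138 kb), 21.7% of the HOXB width (221 kb) and 22.2% of the HOXD width (119 kb). A call in favour of 697 was made in 36.2% of the 138 kb tiles. A call in favour of REH is therefore not rare, and with 5 loci the counts are a description.

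**Figure D1:**
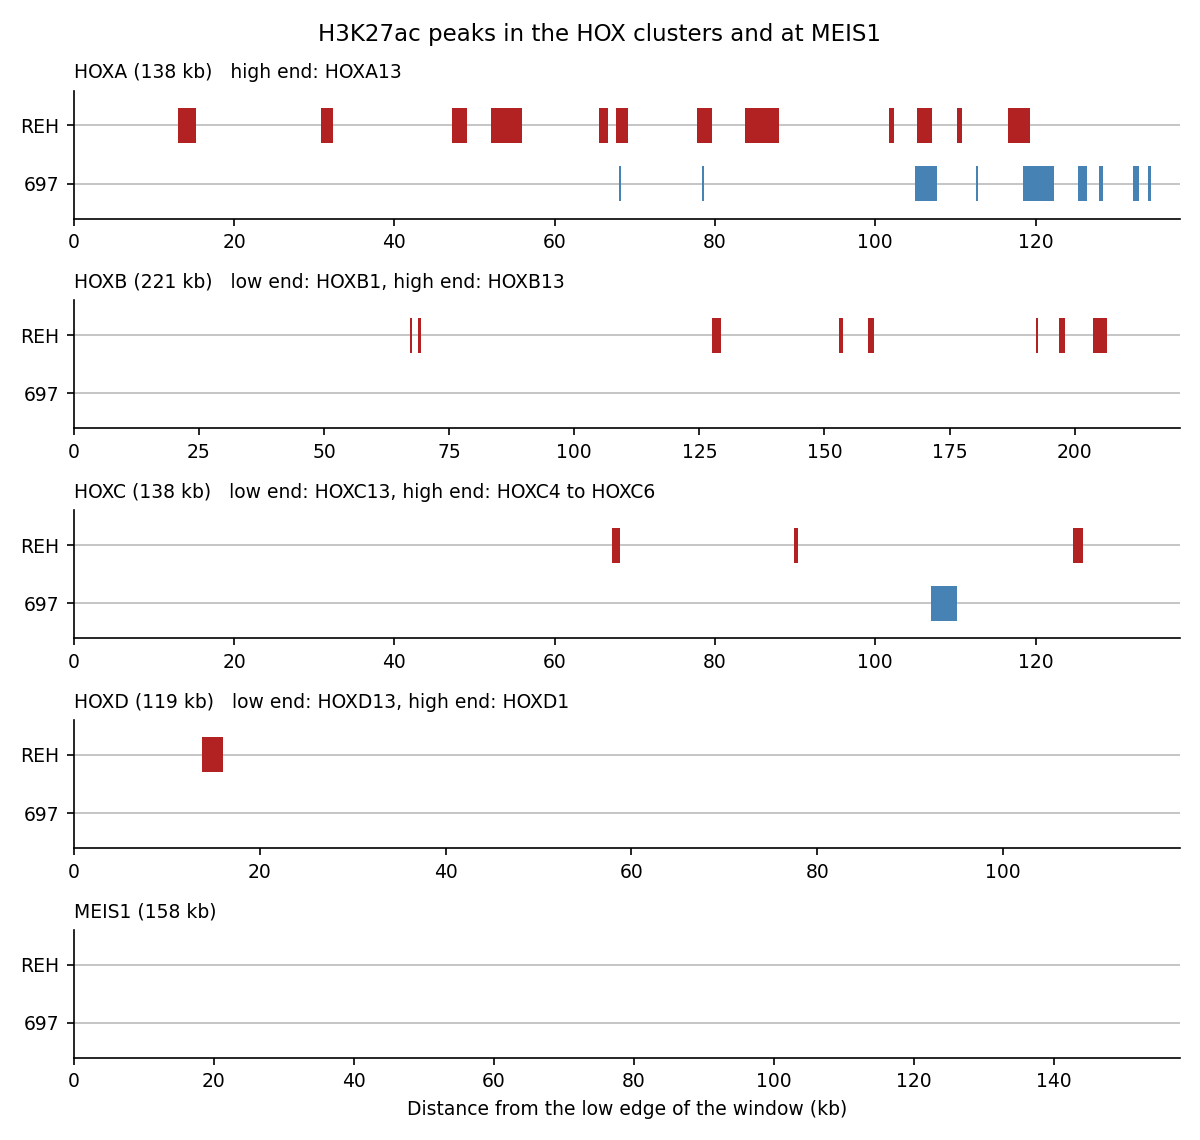
Each panel is 1 window, with the distance from its low edge in kb on the horizontal axis and each H3K27ac peak drawn to scale as a box, for REH (upper line) and 697 (lower line), 1 library each. REH has 12, 8, 3, 1 and 0 peaks in HOXA, HOXB, HOXC, HOXD and MEIS1, and 697 has 9, 0, 1, 0 and 0, with the 697 peaks in HOXA gathered towards the high edge of the window.

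HOXA had the most bases under H3K27ac peaks of the 4 clusters in both lines. In REH, 12 peaks covered 23976 bp, or 17.4% of the window (chromosome 7, 27122000 to 27260000), and in 697, 9 peaks covered 10194 bp, or 7.39%, a ratio of 2.35. The median covered share of the 138 kb tiles was 1.83% in REH and 2.49% in 697. Only 346 of the 13961 tiles, 2.48%, were covered at least as much in REH as the HOXA window, while 3232 tiles, 23.2%, were covered at least as much in 697. The median HOXA peak was 1822.5 bp long in REH and 433 bp long in 697, against 1060 and 871 bp in the whole lists. HOXA therefore stood high among the tiles of REH and less high among those of 697.

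The lines differed in where the peaks lay within HOXA. The reference places HOXA13 at the high end of the window, with HOXA9 and HOXA10, the genes most often named in leukemia, towards the HOXA13 side. In REH the covered bases were spread over the window, with 3703 bp in the lower, 14449 bp in the middle and 5824 bp in the upper of 3 sections of equal width. In 697 the lower section had 0 bp and the middle section 630 bp, and 9564 bp, or 93.8% of the covered bases, lay in the upper section. In that section 697 had more bases under peaks than REH, the opposite of the window as a whole. The sections were chosen after the peaks were seen.

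In the lower section REH had a peak of 2231 bp from 27134955 to 27137185, nearest the low edge, and a peak of 1472 bp from 27152827 to 27154298. In the middle section REH had 6 peaks, of which the longest ran over 4307 bp from 27205691 to 27209997 and the next over 3915 bp from 27174009 to 27177923. Only 4.80% and 5.98% of all REH peaks were at least as long as these. The other 4 middle peaks ran from 27169183 to 27171068, from 27187592 to 27188646, from 27189714 to 27191177 and from 27199780 to 27201601, and were 1055 to 1886 bp long. In the upper section REH had peaks of 697, 1823, 650 and 2654 bp, starting at 27223690, 27227240, 27232160 and 27238615. The REH peaks ended at 27241268, 119.268 kb from the low edge, so the last part of the window, up to its high edge, was free of REH peaks.

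In 697 the first long peak, of 2705 bp, began at 27226992, 104.991 kb from the low edge. The longest, of 3913 bp from 27240440 to 27244352, was in the top 5.32% of the 697 list by length. Beyond it lay 4 more peaks that started at 27247354, 27249983, 27254200 and 27256009 and were 1131, 392, 713 and 433 bp long, where REH had none. A peak of 277 bp lay from 27234518 to 27234794. The 2 remaining peaks, from 27189982 to 27190315 and from 27200366 to 27200661, were short, 334 and 296 bp, and each lay wholly inside a REH peak of the middle section. The 697 peaks went on past the window: in the flank of the same width above it, towards EVX1, the next protein-coding gene and itself a homeobox gene, 697 had 6 peaks over 7738 bp and REH 1 peak of 449 bp. In the flank on the other side, towards SKAP2, an adaptor gene, REH had 3 peaks over 3378 bp and 697 had 2 over 1836 bp.

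**Figure D2:**
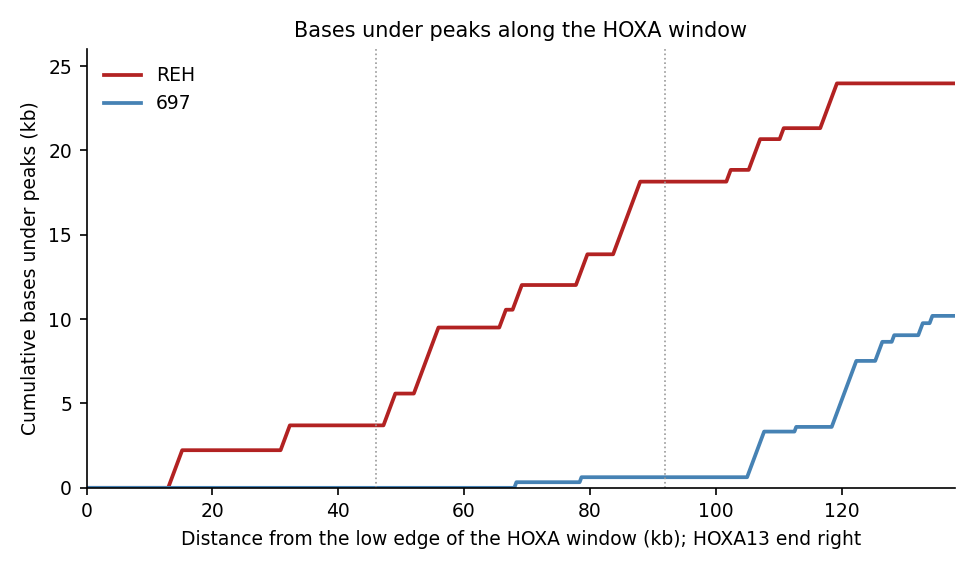
The horizontal axis is the distance from the low edge of the HOXA window in kb and the vertical axis the bases under peaks summed from that edge in kb, for 1 library of REH and 1 of 697, with dotted lines between the 3 sections. The REH line rises in steps over most of the window to 23976 bp, whereas the 697 line stays near 0 up to the upper section and then rises to 10194 bp.

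The peaks of HOXA were the only member peaks that overlapped between the lines. In each line 4 peaks took part, of 12 in REH and 9 in 697, and the lines had 3282 bp in common. The REH peak of 1823 bp starting at 27227240 lay wholly within the 697 peak that started at 27226992, the largest overlap. At the longest 697 peak the overlap was 829 bp, 31.2% of the REH peak and 21.2% of the 697 peak. Over all 5 loci, 4 of 24 REH peaks were shared, 16.7% (95% exact binomial interval 4.74 to 37.4), against 64.1% of the whole REH list. Of the 697 peaks in the loci, 4 of 10 were shared, 40.0% (12.2 to 73.8), against 38.9% of the whole 697 list. At an FDR of at most 5%, 8 peaks of 697 and 22 of REH remained in the loci. Of these, 12.5% in 697 and 4.55% in REH were shared, and the shares of the whole lists at that setting were not computed. The intervals cover counting error only, and peaks of 1 cluster are not independent of each other. In REH, 16 of the 24 peaks (66.7%) were at least 1000 bp long, against 52.3% of the whole list. In 697, 4 of the 10 peaks (40.0%) were, against 44.2% of the whole list.

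The HOXB window held H3K27ac peaks in REH and none in 697. RefSeq also places PRAC2 and PRAC1 between members of HOXB, and which genes lie under the peaks was not determined. In the window (chromosome 17, 46596000 to 46817000), which holds all 10 HOXB genes, 8 REH peaks covered 8880 bp, or 4.02%, against a median of 1.69% in the 221 kb tiles of REH with a peak of either line. The upper section, towards HOXB13, a gene known from prostate and hindgut, held 5 of the 8 peaks and 6256 bp, or 70.5% of the covered bases. The longest peak, of 2853 bp from 46799594 to 46802446, lay there, and 11.8% of all REH peaks were at least as long. The other 4 peaks of that section started at 46748955, 46754646, 46788201 and 46792969 and were 700, 1205, 416 and 1082 bp long. The middle section had 1 peak of 1619 bp from 46723618 to 46725236. In the lower section there were 2 short peaks of 474 and 531 bp, starting at 46663096 and 46664838, and both lay near its border with the middle section, with no peak in the first 67.095 kb at the HOXB1 end.

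In 697 the HOXB window lay in a stretch of 650.828 kb without a peak, from 46185474 to 46836303. The stretch ended 19.302 kb above the window. Of the 74480 stretches between neighbouring 697 peaks, 691 (0.928%) were at least as long. A fixed window falls in a long stretch more often than in a short one, so this share understates how common such positions are. The same holds for the shares of stretches given for HOXD and MEIS1 below. In the flank above HOXB, where TTLL6 and CALCOCO2 are the next genes, 697 had 17 peaks over 25167 bp, more than the 13 peaks over 14799 bp of REH. The flank below, towards the T-cell adaptor gene SKAP1, had 1 REH peak of 1721 bp and no 697 peak. As a description added after the values were seen, 1933 tiles of 221 kb had at least 8 REH peaks, and 19 of these, 0.983%, had no 697 peak.

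**Figure D3:**
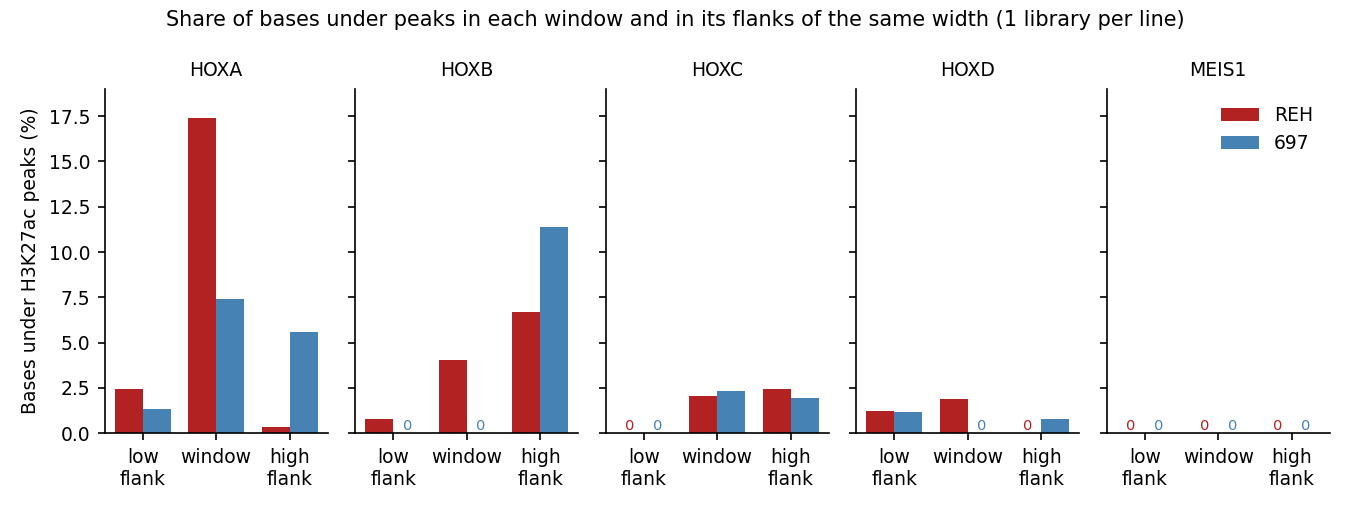
The vertical axis is the percent of bases under H3K27ac peaks in each window and in the flanks of the same width below and above it, for REH (red) and 697 (blue), 1 library each, with 0 printed where there was no peak. At HOXB the 697 bar is 0% in the window and 11.4% in the high flank, at HOXA the window stands above both flanks in both lines, and MEIS1 is 0% throughout.

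HOXC had few bases under peaks in either line, and at different places. In the window (chromosome 12, 54322000 to 54460000), 3 REH peaks covered 2818 bp, or 2.04%, and 1 peak of 697 covered 3232 bp, or 2.34%, 1.15 times as much. These shares were near the medians of the 138 kb tiles, 1.83% and 2.49%. The REH peaks were 896, 573 and 1349 bp long and started at 54389209, 54411808 and 54446628. The single 697 peak ran from 54429018 to 54432249, between the second and the last REH peak, and overlapped neither. It was among the longest 7.99% of 697 peaks. All of them lay in the middle and upper sections, towards HOXC4, HOXC5 and HOXC6, whose products act at more anterior levels, and the lower section, towards HOXC13, the hair follicle gene, had no peak in either line.

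HOXD had 1 peak in REH and none in 697. The REH peak covered 2257 bp, or 1.90% of the window (chromosome 2, 176947000 to 177066000), from 176960809 to 176963065. It lay in the lower section, towards HOXD13 and HOXD12, and the other sections, which lead to HOXD1, were without a peak. Tiles of 119 kb with exactly 1 REH peak had no 697 peak in 32.8% of cases, so this pattern is not rare among such tiles. The 697 stretch without a peak ran over 266.64 kb, and 1754 of the 74480 stretches between neighbouring 697 peaks (2.35%) were at least as long. Below the window the nearest peaks ended at 176867350 in REH and 176867329 in 697, so both lists held a peak at this neighbouring position.

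MEIS1 had no H3K27ac peak in either line over its window of 158 kb (chromosome 2, 66652000 to 66810000), nor in the flanks of the same width. The stretch without a peak was 1789.938 kb long in REH and 1543.47 kb in 697. Of the stretches between neighbouring peaks, 122 of 44602 in REH (0.274%) and 176 of 74480 in 697 (0.236%) were at least as long. Of all 158 kb tiles, assembly gaps included, 34.2% had no peak in either line, so an empty window of this width is not unusual by itself. The nearest peaks above, 814.477 and 814.495 kb away, started at 67624478 in REH and 67624496 in 697, towards ETAA1, a gene of the replication stress response. MEIS1 thus shared the empty state in both lines, whereas HOXB and HOXD were empty in 697 only.

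**Figure D4:**
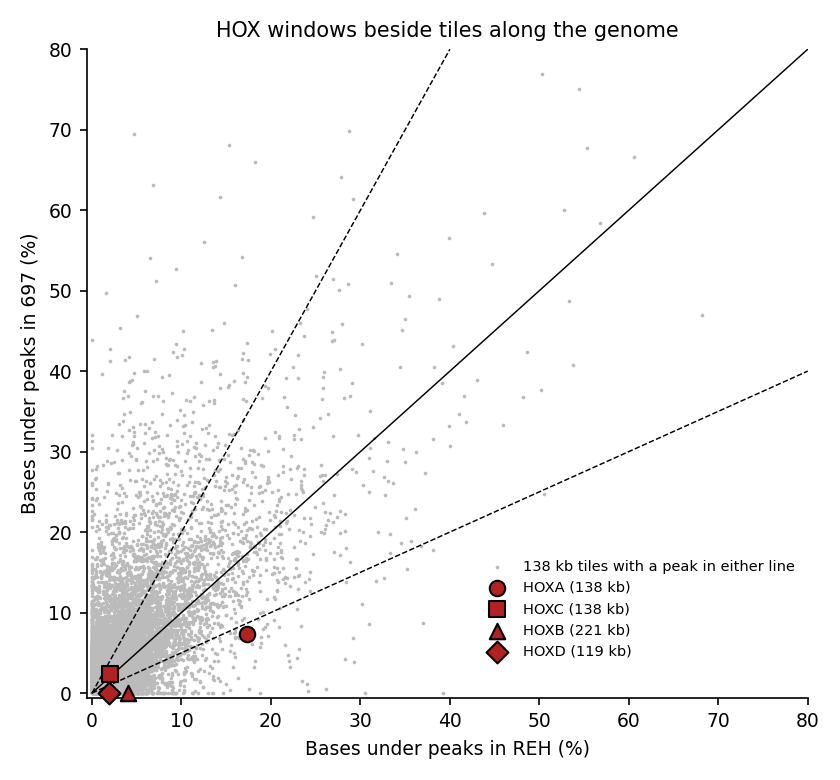
Each grey point is a 138 kb tile of the genome with a peak in either line, with the percent of its bases under peaks in REH on the horizontal and in 697 on the vertical axis; the solid line marks equal shares and the dashed lines a difference of 2 times, and the HOX windows are drawn at their own widths. HOXA lies at 17.4% and 7.39%, just past the dashed line on the REH side, HOXB and HOXD lie on the horizontal axis at 4.02% and 1.90%, and HOXC lies near the solid line.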

How the data were processed

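H3K27ac was measured in 1 library each of REH and 697 and the input libraries served as controls. Per the Methods and the labels, the authors mapped reads to hg19 with Bowtie (Bowtie2 in the labels). Per the file headers, peaks were called with MACS 2.1.0.20150731 in broad mode (the Methods give an older version), with q-value cutoffs of 0.05 and 0.1 and 1 tag kept per position. The deposited lists give each peak's position, length, mean pileup signal, fold enrichment as a ratio, and the −log10 of its p-value and of its q-value. At the 24932 peaks that overlapped 1 to 1, the Spearman correlation between the lines was 0.473 for length and 0.025 for pileup, over peaks that are not replicates, so only positions and lengths were used, apart from 1 alternative on the q-value.

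The members and windows were chosen with earlier results of these data known. Peaks that overlapped a window by 1 bp were counted, and covered bases were clipped to the window. All 5 loci were named, with each of their peaks. Tiles ran from the start of each chromosome to its last peak, without chromosome Y. Single genes were named only by their order in RefSeq on GRCh38. Sections of the windows, stretches without peaks and tiles with a minimum of REH peaks were added after the values were seen. Interval functions were tested on simulated data. Analyses ran in Python 3.11.15 with scipy 1.17.1, pandas 2.3.3 and numpy 2.4.6, and plots in matplotlib 3.10.9.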

Additional observations from a re-analysis of the deposited data

How the results depend on the processing

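Of 63 alternative values, 59 kept their call or stayed near the main value, within 1.5 times for counts and within the binomial interval for shares. The 59 include the MEIS1 differences, which were 0 in every setting. They also include the number of loci called under the 3-fold rule, although HOXA lost its call there. The 697 share of 12.5% at an FDR of at most 5% is counted too, just above the lower bound of 12.2%. In 697 HOXB and HOXD had no peak in any setting, so their calls were kept wherever a REH peak remained. The 59 are therefore not all free checks. The covered bases in REH minus those in 697 were between 11108 and 15514 bp at HOXA, between 6759 and 8880 bp at HOXB and 2257 bp at HOXD throughout. With only peaks of at least 1000 bp, HOXC was called higher in 697, with a difference of -1883 bp, and 4 peaks remained in 697. With the 697 list reduced to as many peaks as REH, keeping the longest, 5 of its peaks remained in the loci. At an FDR of at most 5%, 4.55% of the REH peaks in the loci were shared, against 8.33% to 16.7% under the other settings, and 12.5% of the 697 peaks were, against 30.0% to 50%. That setting uses the deposited q-values, which were hardly related between the lines at shared peaks. A 3-fold rule left 2 loci called, HOXB and HOXD, since HOXA lost its call. Peak midpoints, a flank of 10 kb and merging within 1000 bp changed no call. With peak midpoints and with merging, every value was the same as in the main setting. An overlap of 50% of the shorter peak bears on the shared peaks alone and gave 12.5% in REH and 30.0% in 697. The shares of the whole lists were computed in the main setting only, so the shares under other settings have no background beside them. Gene bodies, other genes of the pathway and cell type markers were not run, because no hg19 annotation was used. No paired analysis was possible because each line has 1 library. Whether depth limits these values was not tested, since tags per peak were not analysed here.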
